A study of Mus musculus with 15 samples.

Results

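The heavy chain constant region genes Ighm and Ighg1 and the joining chain gene Jchain were followed on 15 oligonucleotide arrays of mouse splenic B cells. Probe sets were taken where the gene symbol in the deposited annotation was one of these names or its older alias (Igh-6 for Ighm, Igh-4 for Ighg1 and Igj for Jchain). This gave 11 of 45037 probe sets, 3 of 16438 gene symbols: 2 probe sets of Ighm, 8 of Ighg1 and 1 of Jchain. A probe set is a group of short probes that read 1 transcript together, and its intensity cannot be set against that of another probe set as an amount of RNA.

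The study set memory B cells against naive B cells in 2 screens, and all cells were sorted for binding the hapten NP. In the first screen the naive arrays A, B and C and the memory arrays D, E, F and G all came from mice transgenic for mVh186.2, a rearranged antibody heavy chain typical of NP responses. In the second screen the naive arrays A to D came from mVh186.2 transgenic mice in which the Jk segments were knocked out, and the gate left out cells with AA4.1, a marker of immature B cells. The memory arrays EK, FG, HJ and I of that screen came from mVh186.2 transgenic splenocytes that had been transferred into AM14/Vk8R transgenic recipients, where memory formed. Every group thus carries the heavy chain transgene, and the labels do not say which constant region the transgene holds or whether the Ighm probe sets read it. Age, immunization and the time between immunization and sorting are not given in the labels, nor do they say if a double letter such as EK marks a pool of mice. The series calls the replicates biological but ties no array to an animal, so the p-values measure the spread between arrays.

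A B cell begins with IgM, whose heavy chain constant region comes from Ighm, and can move its variable segment in front of a downstream constant gene, a step called class switching. RefSeq places the constant genes on mouse chromosome 12 in the order Ighm, Ighd, Ighg3, Ighg1, Ighg2b, Ighg2c, Ighe and Igha, so that a switch from IgM to IgG1 removes Ighm from that allele. Jchain, on chromosome 5, encodes a small protein that links IgM pentamers and IgA dimers for secretion, and it is best known from plasma cells, the cells that secrete antibody. Blimp-1 (Prdm1), Xbp1 and Irf4 drive the plasma cell state, while Pax5, Bcl6 and Bach2 hold it back, and Pax5 is known to repress the J chain gene.

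The promoter of Jchain is shown because Jchain is the member outside the heavy chain cluster and rose in both screens. It is the only one of the 3 genes with an entry in the promoter table used. The 250 bases before the start site are given from RefSeq (GRCm38.p6, chr5:88527898-88528147, minus strand), with matches to GGAA, the core letters of ETS factor sites, and to CANNTG, the E-box, in capitals on either strand.
Jchain: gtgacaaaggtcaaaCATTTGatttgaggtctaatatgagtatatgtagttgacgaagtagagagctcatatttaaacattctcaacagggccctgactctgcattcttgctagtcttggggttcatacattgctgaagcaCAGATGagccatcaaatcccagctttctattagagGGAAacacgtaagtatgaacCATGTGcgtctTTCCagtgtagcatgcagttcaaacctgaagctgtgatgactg
No match overlaps another. GGAA was found 2 times, and 93.4% of 32851 promoters of the same length hold it. CANNTG was found 3 times, and 66.2% of promoters hold it. The octamer ATTTGCAT of immunoglobulin promoters was found 0 times in these letters and is held by 1.6% of promoters, and TATAAA was found 0 times and is held by 12.4%. These are counts of letters and describe neither binding nor use.

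Values are the deposited intensities on a linear scale, and a change is the memory mean less the naive mean of log2(intensity + 1), with the standard error of limma's fit. A probe set entered a screen's test if at least 3 arrays (first screen) or 4 arrays (second screen) exceeded the median intensity, which was 125.1 and 25.5. Each p is adjusted by Benjamini-Hochberg over all probe sets tested in that screen, with a threshold of 0.05. Of the 11 probe sets 9 entered the first test and 8 the second. On the first screen naive C and memory G stood apart. They correlated more with each other (r = 0.912) than with their own groups (mean r = 0.878 and 0.883). They were also the highest 2 arrays on each of the 3 probe sets whose annotation names the Vh186.2 segment, for 1427851_x_at at log2 12.30 and 11.99 against 8.45 to 9.67 on the other 5 arrays. Each first-screen change of a member is therefore also given without these 2 arrays. The 6 B cell markers read here (Cd79a, Cd79b, Ms4a1, Cd22, Blnk and Pax5) all passed the filter in both screens, although Pax5 lay above the median on 1 of 4 memory arrays of the first screen.

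Among the members' probe sets, 6 were called higher in memory cells in each screen and 0 lower. Of all probe sets tested, limma called 0.407% higher and 0.084% lower in the first, and 9.61% higher and 14.4% lower in the second. Leaving out naive C and memory G, limma called 2.31% of all probe sets higher and 2.36% lower in the first screen, and the same 6 of the members' probe sets higher. With the unadjusted p under 0.05, 7 and 6 were higher and 0 lower. Added in the first screen was 1452538_at, which entered the test only through memory arrays. The share of all probe sets at that unadjusted threshold was not computed, here or for the lists below. The groups did not overlap for 7 of 11 probe sets in each screen, every one with memory above naive, which held for 5.91% and 7.67% of all probe sets. Both times the 6 called were the same ones: 5 of Ighg1 and the 1 of Jchain. In the first screen 2 of the 6, 1425324_x_at and 1427756_x_at, entered the test only through memory arrays, so their place in that count is no support for a difference. Both Ighm probe sets were bright and were called in neither screen.

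**Figure D1:**
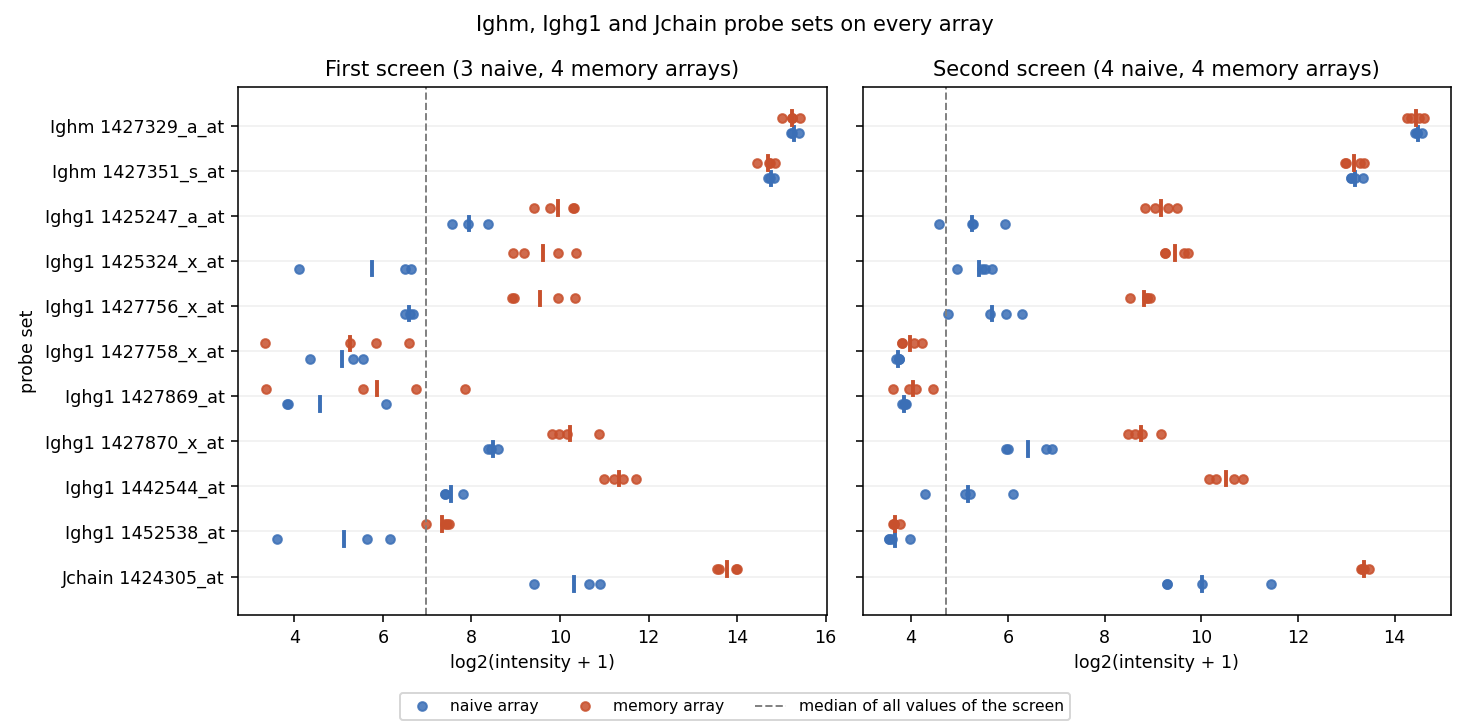
The log2(intensity + 1) of all 11 probe sets is plotted for every naive (blue) and memory (red) array of each screen, with vertical ticks at group means and a dashed line at the screen's median. Ighm points of both groups lie on each other, while the 5 called Ighg1 probe sets and Jchain lie to the right in memory cells.

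Ighm, the constant region of IgM, was read at almost the same intensity in naive and memory cells. On the first screen's arrays 1427329_a_at stood at 38737, 37944 and 43535 on naive A, B and C and at 33174, 38634, 38896 and 43854 on memory D to G. The highest and the lowest value were both memory arrays, so the groups overlapped, and the change was -0.06 ± 0.12 (adjusted p = 0.953; 95% interval -0.32 to 0.21). The second screen read 21881, 24409, 22627 and 22627 on naive A to D and 20812, 25089, 19635 and 23373 on memory EK, FG, HJ and I. Memory again held both extremes, and the change was -0.05 ± 0.08 (adjusted p = 0.700; 95% interval -0.22 to 0.13).

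The other Ighm probe set gave the same picture. For 1427351_s_at the first screen read 27575, 26540 and 29110 in naive and 22277, 27120, 29547 and 27328 in memory cells, a change of -0.07 (adjusted p = 0.940; 95% interval -0.33 to 0.20). The second read 8794, 10411, 9316 and 8828 in naive and 8149, 9966, 8038 and 10579 in memory cells, a change of -0.03 (adjusted p = 0.854; 95% interval -0.26 to 0.19). With 1427329_a_at included, the lower ends of the intervals were -0.32, -0.33, -0.22 and -0.26 on the log2 scale. Without naive C and memory G the 2 changes of the first screen were -0.06 and -0.05. On every array 1427329_a_at lay at 65.5% to 78.2% of the array's highest intensity (first screen) or 30.1% to 39.6% (second), and a compression of bright signals was not tested. A sorted sample gives 1 value for many cells, so fewer cells with a transcript and less transcript per cell cannot be told apart here or in any value that comes next.

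Ighg1, the constant region of IgG1, had the largest changes of the members. Its probe set 1442544_at read 167.3, 169.2 and 224.7 on naive A, B and C and 2397, 2030, 3390 and 2735 on memory D to G of the first screen. The lowest memory array stood far above the highest naive array. The change was 3.80 ± 0.21, 13.9-fold (adjusted p = 0.000438), the 14th largest rise of 23813 probe sets, and without naive C and memory G it was 3.91 (adjusted p = 8.17e-06). The same probe set read 18.5, 67.8, 36.2 and 33.6 on naive A to D and 1866, 1266, 1637 and 1145 on memory EK, FG, HJ and I of the second screen. Naive A lay below the screen's median and naive B was the highest naive array, yet all memory arrays were well above both. The change was 5.32 ± 0.34, 40.0-fold (adjusted p = 8.20e-06), the 14th largest of 22638.

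Next come 2 probe sets that no naive array of the first screen brought above the median, so that they entered that test through memory cells only; their p without the filter, where every probe set is tested, is given as well. There 1425324_x_at read 16.2, 88.8 and 98.8 in naive and 583.7, 486.1, 990.6 and 1305 in memory cells, a change of 3.86 ± 0.63 (adjusted p = 0.0436, and 0.0426 without filter). Naive A was the lowest by far, and the change was 3.04 with naive A left out and 3.45 with a pseudocount of 16. Second-screen readings of 1425324_x_at were 49.9, 43.4, 29.7 and 45.3 in naive and 841, 610.3, 799.7 and 605 in memory cells, a change of 4.06 ± 0.18 (adjusted p = 1.01e-06). The other, 1427756_x_at, read 88.9, 101.4 and 97.6 in naive and 495.6, 480, 992.3 and 1289 in memory cells of the first screen, a change of 2.94 ± 0.37 (adjusted p = 0.0135, and 0.0141 without filter). Memory F and G were higher than D and E, and all stood above the naive arrays. Its second-screen readings were 61.0, 48.8, 26.3 and 77.7 in naive and 492, 365, 473 and 469 in memory cells, a change of 3.14 ± 0.29 (adjusted p = 6.98e-05).

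The remaining called probe sets of Ighg1 had higher readings in naive cells of the first screen. There 1425247_a_at read 189, 240.4 and 329.1 in naive and 870.2, 677, 1257 and 1276 in memory cells, a change of 2.00 ± 0.29 (adjusted p = 0.0235). The second screen gave 22.9, 37.2, 37.6 and 60.3 in naive and 727, 526, 633 and 458 in memory cells, a change of 3.91 ± 0.26 (adjusted p = 1.24e-05). The groups lay apart in both screens. The last, 1427870_x_at, read 348.6, 333.2 and 386.1 in naive and 1148, 1012, 1896 and 908.2 in memory cells of the first screen, a change of 1.74 ± 0.26 (adjusted p = 0.0251). On the second screen's arrays it read 63.0, 61.2, 118.8 and 110.3 in naive and 572, 394, 436 and 357 in memory cells, a change of 2.35 ± 0.25 (adjusted p = 0.000161). Its naive arrays paired off as A with B and C with D, and all 4 stayed below every memory array.

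The number of alternatives under which the Ighg1 calls held differed. All 5 calls of the second screen held under every alternative run. Among first-screen calls, 1442544_at was called under all 16, but leaving out 1 array ended the call of 1425324_x_at (memory D, E, F or G or naive B; adjusted p up to 0.190), 1427870_x_at (naive A or B or memory D or E; up to 0.141), 1425247_a_at (naive A or B or memory D or F; up to 0.132) and 1427756_x_at (naive A or B or memory F; up to 0.0728). Without naive C and memory G all 4 of these were called, with changes of 4.06, 1.93, 2.08 and 2.69. Without the intensity trend 1425324_x_at (adjusted p = 0.0977), 1427870_x_at (0.0677) and 1425247_a_at (0.0620) lost their calls, and median centring ended that of 1427870_x_at (0.0791).

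Of the 8 Ighg1 probe sets, 3 gave no call. Of these, 1452538_at read 70.3, 11.1 and 49 in naive and 169.4, 123.9, 178.4 and 173.3 in memory cells of the first screen. The groups did not overlap, but the naive arrays were dim and scattered, and the change of 2.20 ± 0.68 missed the threshold (adjusted p = 0.340). Leaving out the 2 arrays that stood apart gave 2.41 (adjusted p = 0.127). This probe set, too, entered the test through memory arrays only. Among second-screen arrays it lay between 10.7 and 14.6 on all 8 arrays, below the median, and so did not enter the test. The other uncalled probe sets, 1427758_x_at and 1427869_at, were below the filter in both screens, with highest readings of 95.8 and 228.9 (first screen) and 17.8 and 20.8 (second). For 1427758_x_at every memory array of the second screen lay above every naive array, at 13.0 to 17.8 against 11.955 to 12.5, with a change of 0.24 in the fit without filter (adjusted p = 0.169).

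**Figure D2:**
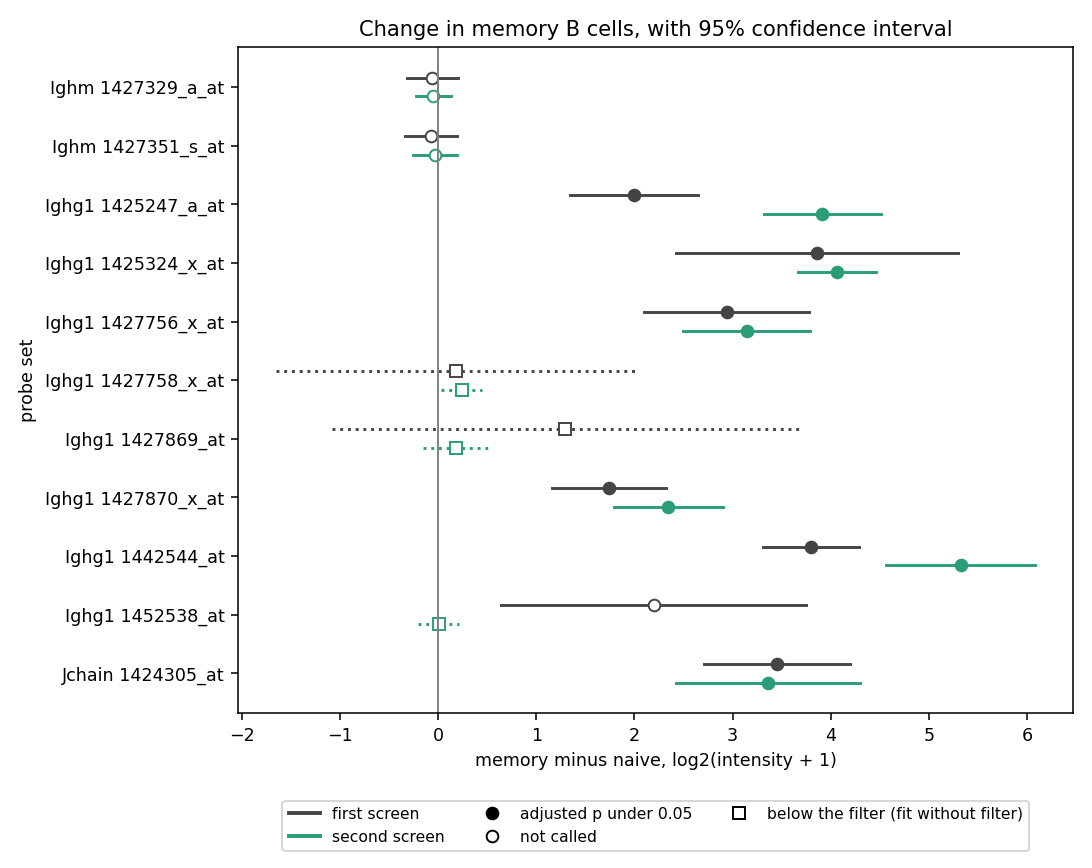
The change from naive to memory cells is plotted on the log2(intensity + 1) scale for each probe set and screen, with 95% confidence intervals. Filled circles passed the test, open circles did not, and squares with dotted intervals were below the filter and come from the fit without it; Ighm lies between -0.07 and -0.03, while called Ighg1 changes run from 1.74 to 5.32.

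The 8 probe sets are not 8 independent readings of IgG1. In the annotation 6 share 1 transcript cluster, and the other 2, 1427758_x_at and 1452538_at, share another cluster and 1 source sequence. The pair 1427869_at and 1427870_x_at also shares a source sequence, yet the first lay below the filter in both screens, above the median on memory G of the first screen alone, and the second was called in both screens. In the naming of these arrays the ending _x_at marks probes that can also match other transcripts, and the IgG constant genes are close relatives, so signal from another IgG class in these probe sets was not told apart from Ighg1. The order of arrays was shared as well: over the 5 called probe sets memory EK was the highest memory array in 5 and memory I the lowest in 4 of the second screen. For the first screen memory E was the lowest memory array in 4 and naive A the lowest naive array in 4.

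Ighg1 was also set against Ighm within each array, which cancels whatever scales a whole array. The value itself compares different probes and has no meaning, but its change between groups shows unequal change of the genes. For the first screen log2 1442544_at less log2 1427329_a_at was -7.85, -7.80 and -7.59 in naive and -3.79, -4.25, -3.52 and -4.003 in memory cells. The groups lay apart by far more than their spread, and the means differed by 3.86 (exact permutation test, two-sided, p = 0.0571, the smallest that 35 arrangements allow). The second screen's values were -10.13, -8.47, -9.25 and -9.35 in naive and -3.48, -4.31, -3.58 and -4.35 in memory cells. The means differed by 5.37 (exact permutation test, two-sided, p = 0.0286, the smallest that 70 arrangements allow).

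**Figure D3:**
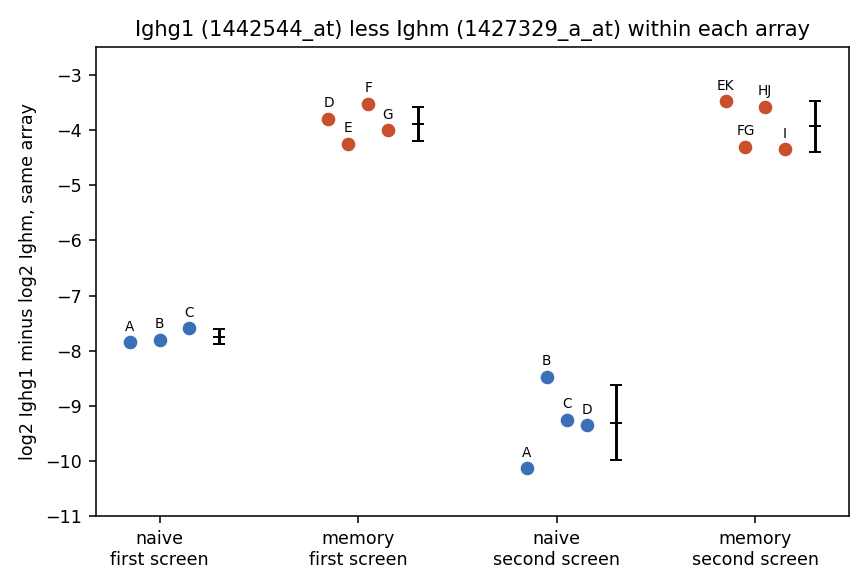
The log2 intensity of Ighg1 (1442544_at) less that of Ighm (1427329_a_at) is plotted for each of the 15 arrays, with the group mean and SD. Memory arrays of both screens lie between -4.35 and -3.48 and naive arrays between -10.13 and -7.59.

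Jchain rose in both screens and reached high intensities. Its probe set 1424305_at read 680.6, 1610 and 1919 on naive A, B and C and 11989, 12404, 16042 and 16392 on memory D to G of the first screen. Naive A was the lowest naive array, and every memory array was several times brighter than any naive array. The change was 3.46 ± 0.33, 11.0-fold (adjusted p = 0.00275), and without naive C and memory G it was 3.67 (adjusted p = 0.000111). Second-screen readings were 625, 2789, 626 and 1039 on naive A to D and 10286, 10627, 10139 and 11417 on memory EK, FG, HJ and I. The memory arrays lay close together, while naive B stood well above the other naive arrays and still below every memory array. The change was 3.36 ± 0.42, 10.3-fold (adjusted p = 0.000456). Jchain was called under all 16 alternatives of each screen, with changes from 3.00 to 3.75 and from 3.12 to 3.84.

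Naive B of the second screen, the naive array with the most Jchain, also read highest of the naive arrays for the 5 germinal center markers read here. Ighg1 gave no such order: over its 5 called probe sets naive B was the highest naive array in 1 (1442544_at) and the lowest in 1 (1427870_x_at), while naive D was the highest in 2. S1pr2, a receptor of germinal center B cells, stood at log2 9.49 there against 6.01 to 6.93 on the other naive arrays, Gcsam at 6.55 against 3.41 to 4.30 and Mybl1 at 5.67 against 3.97 to 4.12. Bcl6 (12.09 against 11.46 to 12.05) and Fas (9.76 against 9.02 to 9.61) exceeded the next array by little. The summed intensity of the 5 markers was 3429 to 6077 on naive and 1608 to 2207 on memory arrays. Bcl6, the brightest of the 5, weighs most in this sum and lay at 9.75 to 10.53 on memory arrays. S1pr2 (5.84 to 6.28), Gcsam (3.44 to 3.71) and Mybl1 (3.98 to 4.33) on memory arrays lay near their values on naive A and C. Without naive B the Jchain change was 3.84, the largest over all alternatives, and the Ighg1 change by 1442544_at 5.63; the role of germinal center cells in these readings was not tested.

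**Figure D4:**
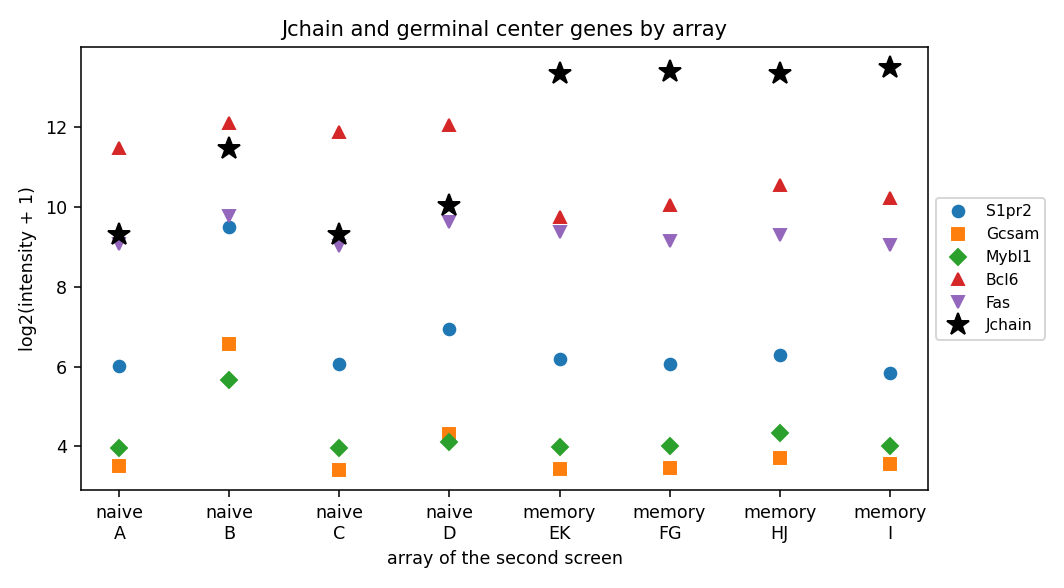
The log2(intensity + 1) of Jchain (stars) and of 5 germinal center genes is plotted for the 8 arrays of the second screen. Jchain lies at 13.31 to 13.48 on memory arrays, and on naive B, where S1pr2, Gcsam and Mybl1 are high, it lies at 11.45.

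Markers of antibody-secreting cells were read beside Jchain, and the share of such cells in its rise was not tested. Of all probe sets, limma called 0.407% higher and 0.084% lower in the first screen, and 9.61% and 14.4% in the second. Of 6 markers of these cells (Sdc1, Prdm1, Xbp1, Irf4, Tnfrsf17 and Slamf7) limma called 0 of 4 tested in the first screen and 0 of 5 in the second, and 0 had an unadjusted p under 0.05 in either. Prdm1, which encodes Blimp-1, changed by 0.41 ± 0.29 (adjusted p = 0.800) and 0.10 ± 0.15 (adjusted p = 0.680). The values for Xbp1, a driver of secretory capacity, were -0.05 ± 0.11 and 0.08 ± 0.10, and for Irf4 -0.10 ± 0.13 and 0.16 ± 0.09. Sdc1, the surface marker CD138, changed by 0.06 ± 0.07 in the second screen and lay below the filter in the first. Tnfrsf17, the receptor BCMA, lay below the filter in both. The summed intensity of the 6 markers overlapped between groups in both screens, at 11701 to 12604 in naive and 10960 to 11991 in memory cells of the first and 4583 to 5302 in naive and 4865 to 6278 in memory cells of the second. Xbp1 and Irf4, the brightest of the 6, weigh most in these sums, which therefore say little of the dimmer markers.

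The wider list of 16 regulators of antibody secretion gave 0 calls among 13 tested in the first screen, with 2 higher and 1 lower at an unadjusted p under 0.05. Calls over all probe sets were 0.407% higher and 0.084% lower in the first screen, and 9.61% and 14.4% in the second. With those 2 arrays left out, Fkbp11, a chaperone of the secretory pathway, was called higher there (1.14, adjusted p = 0.0152). Of 15 tested in the second screen 2 were higher, Zbtb20 (0.93 ± 0.15), a repressor needed by long-lived plasma cells, and Pou2f2 (0.52 ± 0.16), the octamer factor Oct2. Another 5 were lower: Eaf2 (-1.98 ± 0.33) and Ell2 (-0.36 ± 0.09), both of transcription elongation, Pou2af1 (-0.34 ± 0.05), the coactivator of Oct2, Mzb1 (-0.23 ± 0.07), a chaperone that helps IgM assembly, and Cd28 (-1.02 ± 0.27). Cd28 is also a T cell marker, and 5 of 7 T cell markers tested were lower in that screen, with a summed intensity of 567 to 1014 in naive and 369 to 451 in memory cells. Both the count and the sum include Cd28 itself. The share of T cell RNA in the Cd28 value was not tested.

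**Figure D5:**
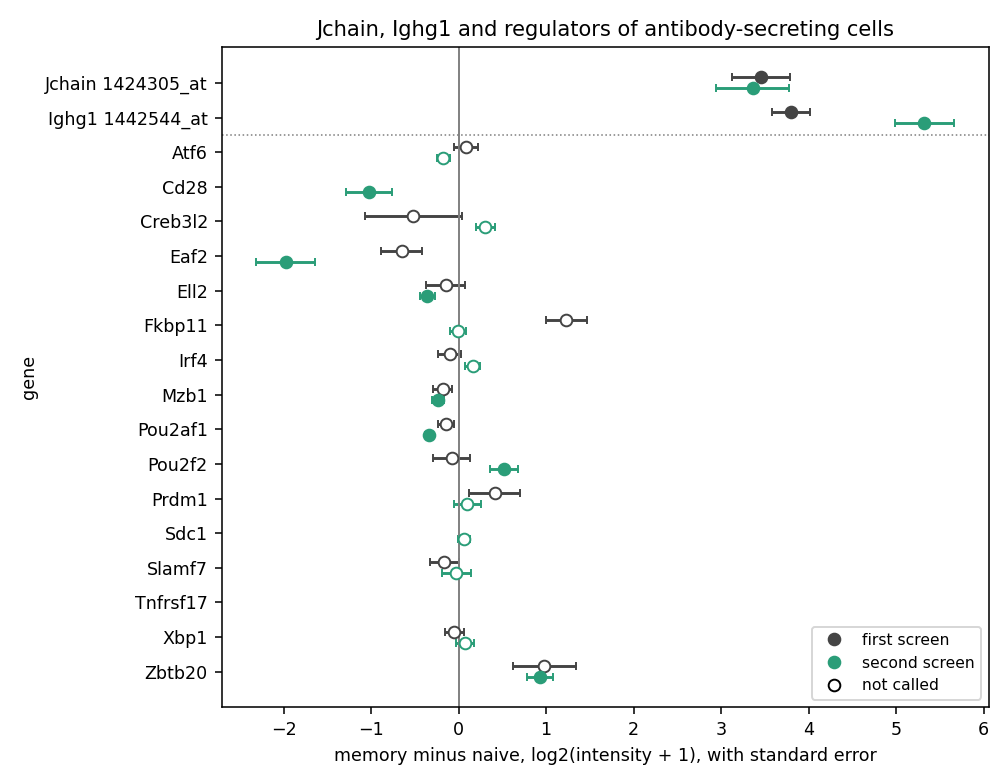
The change from naive to memory cells with its standard error is plotted on the log2(intensity + 1) scale for Jchain, Ighg1 and the 16 regulators, with filled points for calls; a gene below the filter in a screen has no point there. Jchain and Ighg1 lie above 3 in both screens, and the regulators lie between -1.98 and 1.23.

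Genes that fold and assemble antibody in the endoplasmic reticulum were read beside Jchain as well. Over all probe sets tested, 0.407% were higher and 0.084% lower in the first screen, and 9.61% and 14.4% in the second. The first screen called 0 of 25, with 0 higher and 3 lower at an unadjusted p under 0.05. Without naive C and memory G the chaperone Hspa5 (BiP) was called lower (-0.38), beside 2.36% of all probe sets. In the second screen 2 of 25 were higher, Ssr4 (0.25 ± 0.05) and Spcs3 (0.27 ± 0.06), of the translocon-associated complex and the signal peptidase. Lower were 9, and the 4 largest falls were those of Derl3 (-2.02 ± 0.14) of the degradation pathway, the disulfide isomerase Pdia4 (-0.65 ± 0.12), the cochaperone Dnajb9 (-0.50 ± 0.13) and the oxidoreductase partner Erp44 (-0.44 ± 0.08), which retains unassembled IgM. The median change was -0.08 and -0.15, beside 0.02 and -0.03 over all probe sets tested.

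Repressors of the secretory program were lower in part. The first screen called 0 of 7 tested, with 0 higher and 2 lower at an unadjusted p under 0.05. Called lower over all probe sets were 0.084% there, and 2.36% without naive C and memory G. Bcl6, a germinal center repressor of Prdm1, stood at -1.16 ± 0.31 (adjusted p = 0.236), and without naive C and memory G it was called (-1.22, adjusted p = 0.00215), as was Bach2 (-1.12, adjusted p = 0.00955). Second-screen values of Bcl6 (-1.73 ± 0.18), Bach2 (-1.60 ± 0.11) and Id3 (-0.52 ± 0.13) were lower, 3 of 7 tested, beside 14.4% of all probe sets. Pax5, named above for its known effect on the J chain gene, changed by -2.10 ± 0.77 (adjusted p = 0.459) in the first and 0.25 ± 0.17 (adjusted p = 0.345) in the second screen. It was read by 1 probe set, above the first screen's median on 1 memory array. On the second screen's arrays memory I read log2 6.16 against 5.28 to 5.43 on the other memory arrays, beside a median of 4.73.

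Enzymes and signals of class switching were measured beside Ighg1. The shares over all probe sets were 0.407% higher and 0.084% lower in the first screen, and 9.61% and 14.4% in the second. Of the first screen's tests 0 of 18 genes were called, and 0 had an unadjusted p under 0.05. Without naive C and memory G the receptor Cd40 was called lower (-0.38), beside 2.36% of all probe sets. The second screen called Batf (0.42 ± 0.09), a factor needed for switching, and the endonuclease Apex1 (0.35 ± 0.10) higher. Lower were 5, the repair genes Exo1 (-1.17 ± 0.23), Lig4 (-0.69 ± 0.19) and Msh6 (-0.43 ± 0.10), the interleukin 4 receptor Il4ra (-0.37 ± 0.12) and Cd40 (-0.26 ± 0.08).

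Of the receptors and carriers of antibody, limma called 0 of 9 tested higher and 1 lower in the first screen, and 1 higher and 4 lower of 9 in the second. Beside these stand 0.407% and 0.084% of all probe sets in the first screen, and 9.61% and 14.4% in the second. Fcer2a, the low-affinity IgE receptor CD23, was lower in both screens (-1.04 ± 0.15 and -1.40 ± 0.10). In the second screen Fcmr, the IgM receptor (-1.12 ± 0.09), Pigr, which carries J chain-bearing antibody across epithelia (-0.93 ± 0.12), and Trim21, a cytosolic antibody receptor (-0.24 ± 0.05), were lower too. Fcgrt, the neonatal receptor that recycles IgG, was higher there (0.54 ± 0.11). Without naive C and memory G, Fcmr (-0.38) and Fcgrt (0.73) were called in the first screen as well. That fit called 2.31% of all probe sets higher and 2.36% lower.

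Other heavy chain probe sets were followed for comparison. None of the 11 other constant region names searched is a gene symbol in the annotation. Igh-1, the symbol of 1425385_a_at and 1451632_a_at, was not among those names, so the search does not show that other constant genes are absent. Among their common names 7 probe sets hold an alias of Ighm or Ighg1, and 8 more carry the symbol Igh-VJ558 of the variable segments. For scale, 0.407% (first screen) and 9.61% (second) of all probe sets tested were called higher. Of the 7, 1427503_at (1.69 ± 0.16 and 2.13 ± 0.08) and 1447998_at (1.60 ± 0.22 and 1.64 ± 0.12), both under the symbol MGC68300, were called higher in both screens. Another, 1451632_a_at under the symbol Igh-1, was higher in the second (1.93 ± 0.25, adjusted p = 0.000582) and missed the threshold in the first screen (2.50 ± 0.43, adjusted p = 0.0554). Naive B was its highest naive array in the second screen, at log2 5.64 against 4.88 to 4.91. Of the variable segment probe sets, 1425763_x_at rose by 4.13 ± 0.38 and 3.04 ± 0.42 and 1429381_x_at by 1.80 ± 0.18 and 2.66 ± 0.36. No naive array of the first screen brought 1425763_x_at or 1451632_a_at above the median. Both entered that test through memory arrays only, so their place in it is no support for a difference. In the second screen memory EK, the highest memory array for Ighg1, was the lowest for 1425763_x_at, at 8.16 against 9.69 to 9.995. It was also the lowest for 1429381_x_at, at 8.02 against 9.61 to 9.77. For 1451632_a_at memory EK was the highest memory array, at 7.43 against 6.45 to 7.35. None of the 3 probe sets that name Vh186.2 was called. In the first screen 1427850_x_at changed by 0.06 ± 0.62, 1427851_x_at by -0.18 ± 1.04 and 1427852_x_at by -0.35 ± 0.44. In the second 1427850_x_at changed by 0.003 ± 0.12 and 1427851_x_at by 0.23 ± 0.22, and 1427852_x_at lay below the filter.

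The changes of the members were compared between the screens with the standard errors of both fits. The screens differ in genotype, gate, transfer, sorter and labeling kit, which cannot be told apart, and no source used here says how the first screen's intensities were summarized. Of 19781 probe sets tested in both, 0.263% were called as more positive in the second screen, among them 1 of the 8 member probe sets, 1425247_a_at. Its change was larger there by 1.92 ± 0.39 (adjusted p = 0.0297), a call that 12 of 24 alternatives ended (adjusted p 0.00568 to 0.125), among them leaving out naive A or B or memory D or E of the first screen or naive B or C or memory EK or HJ of the second. The brightest Ighg1 probe set, 1442544_at, differed by 1.52 ± 0.40 (adjusted p = 0.120) and was called without naive B of the second screen (1.83, adjusted p = 0.0177) and with naive C and memory G left out of the first (1.41, adjusted p = 0.0456). For Jchain the difference was -0.10 ± 0.53 (adjusted p = 0.986; 95% interval -1.21 to 1.02). The Ighm probe sets differed by 0.01 and 0.04 between the screens, with intervals from -0.29 to 0.36.

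Genes with the most similar pattern were found by the root mean square difference in log2 intensity over 15 arrays, after centring each probe set on its mean in each screen, among 19781 probe sets. For Ighm the nearest were Rps15 (0.0404), Pabpc1, H2-Eb1, Rpl6 and Rpl3, bright transcripts that also barely moved. For Ighg1 they were Pdlim1 (0.465), S100a4, S100a6, Lmna and Prkar2b, and for Jchain Prkcz (0.427), Anxa2, Neurod4, Zbtb32 and Marveld1. All 10 neighbours of Ighg1 and Jchain were called higher in both screens, beside 0.407% and 9.61% of all probe sets. They were chosen on these arrays for likeness to probe sets that rose, so their calls follow from the choice and are no support. Likeness over arrays that fall into these groups is a description and carries no test.

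Markers of other cells in the sorts were read beside the members. Among all probe sets tested, 0.407% were called higher and 0.084% lower in the first screen, and 9.61% and 14.4% in the second. Without naive C and memory G the first-screen shares were 2.31% and 2.36%. The first screen's summed intensity of 8 myeloid markers was 1747 to 2899 in naive and 3312 to 9622 in memory cells, and that of 6 erythroid markers 4126 to 7981 and 8312 to 31979. Of the tested myeloid markers 0 of 6 were called (3 higher and 0 lower at an unadjusted p under 0.05), and without naive C and memory G 3 were higher (Lyz2, S100a8 and S100a9). Of 5 erythroid markers tested 0 were called higher in the first screen and 1 lower, the carbonic anhydrase Car2 (-1.15 ± 0.19, adjusted p = 0.0468), with 3 higher and 1 lower at an unadjusted p under 0.05. Car2 was also the only one of 5 called in the second screen (-2.24 ± 0.30, adjusted p = 0.000778). When naive C and memory G were left out, the heme enzyme Alas2, below the median on all naive arrays, was called higher in the first screen (3.71) and Car2 lower (-0.88). In the second screen both sums overlapped between the groups, at 1463 to 8503 and 3815 to 8076 for myeloid and 3046 to 7243 and 2088 to 5911 for erythroid markers. All 3 NK cell markers tested there were lower in memory cells, and 0 entered the test in the first screen. The share of these cells in the readings of Ighm, Ighg1 and Jchain was not tested.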

How the data were processed

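Intensity values of 45101 probe sets on 15 arrays were used as deposited, on a linear scale; GCRMA made those of the second screen, per the submitters' processing notes, and no source used here names the method of the first. RNA was extracted with RNeasy columns and biotin-labeled with EnzoBio reagents (first screen) or a MessageAmp kit (second), per the labels' protocols. The authors' deposited tables also hold a memory-to-naive ratio and its p-value, which were not used; gene symbols came from the second table.

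After 64 control probe sets were left out, log2(intensity + 1) was computed from the deposited values and each screen was fitted alone with limma 3.58.1 under R 4.3.3 (lmFit, then eBayes with a trend on intensity). Probe sets above the screen's median on at least 3 (first screen) or 4 arrays (second) were tested, 23813 and 22638. Precision is limited by the number of arrays: the median standard error was 0.29 and 0.10. The difference between the screens used both fits' standard errors with Welch-Satterthwaite degrees of freedom. Figures were drawn in Python 3.11.15.

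All probe sets of the 3 genes are given. Of each of 13 context and marker lists, each gene entered by its brightest tested probe set, and all called genes or up to 4 by smallest p, and up to 2 uncalled ones, could be named; others named, such as Pax5 and the further markers, were chosen after their values were seen. Some listed genes are not reported here and were left out of the lists' counts and sums. The members, lists and tests were chosen with earlier results of these data known. Alternatives were no or a stricter filter, a pseudocount of 16, median centring, quantile normalization, the brightest probe set per gene, no trend, robust eBayes, each array left out in turn, naive C and memory G left out, and 1 fit of 4 groups.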

Additional observations from a re-analysis of the deposited data

Results flagged for a closer look

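In groups of 4 arrays, 33 sets of values were searched for an array far from the other 3, which chance gives in about 1 of 20 groups, and 4 were found, 3 of them in 1 dim probe set. For Ighg1 1452538_at, memory E of the first screen read log2 6.96 against 7.41 to 7.49 on the other memory arrays. In the second screen naive A read 3.97 against 3.55 to 3.61 for it, and memory I 3.78 against 3.63 to 3.65, both below the median of the screen. For Ighg1 1427756_x_at, memory FG of the second screen read 8.52 against 8.88 to 8.95. The change of Ighg1 1425247_a_at differed between the screens by 1.92 (adjusted p = 0.0297).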

How the results depend on the processing

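In every alternative run Jchain and Ighg1 1442544_at were called higher in both screens and Ighm in neither, and the second-screen calls of all Ighg1 probe sets held; the Ighm changes lay within -0.26 and 0.03 and crossed 0. First-screen calls among the members, 6, were 2 with the brightest probe set per gene, which keeps 1 probe set a gene, 3 without the intensity trend, and 2 to 6 with 1 array left out; in the second screen 6 became 2 with the brightest probe set. The 117 calls over all probe sets in the first screen became 63 under median centring and 1145 without naive C and memory G, and 47 to 135 with 1 array left out. The 110 calls for the difference between the screens became 66 without filter, 41 under median centring and 1185 without naive C and memory G, and 33 to 239 with 1 array left out; the 1 member among them became 0 without filter, with a pseudocount of 16, with the brightest probe set, without trend and in 1 fit of 4 groups, 2 without naive C and memory G, and 0 to 1 with 1 array left out. The cause of these moves was not tested. With other pairs of probe sets, the first-screen change of Ighg1 against Ighm was 2.05, 2.07, 3.00, 3.01, 1.80, 1.81, 2.25, 2.26, 3.87, 3.92 or 3.93, and the second-screen change, 5.37, was 5.35, 4.11, 4.09, 3.96, 3.95, 3.19, 3.17, 2.39 or 2.38. Signals below the median limit what the dim Ighg1 probe sets can show. No paired analysis was possible because naive and memory arrays carry different letters within a screen.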
